A study of Rattus norvegicus with 9 samples.

Results

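Transferrin and hephaestin stand at neighbouring steps of iron transport, and their transcripts Tf and Heph were followed here in the cerebral cortex of male BN rats (substrain BN/SsNOlaHSD) aged 6, 12 or 28 months. Both are among the 29516 Ensembl gene identifiers of the count files, as the rows that the study's supplementary tables pair with these names (Tf, ENSRNOG00000030625, and Heph, ENSRNOG00000012294), so the genes described are 2 of 29516. Both were chosen by their measured counts, since the study listed them for a difference between 12 and 28 months in these same libraries, by an exact test on the counts. For that reason the difference between 12 and 28 months is given below as a description, with no test read from it, and tests are read only for 6 against 28 months and 6 against 12 months, comparisons that share libraries with the one that chose the genes.

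All rats were fed ad libitum and kept under barrier conditions, and age is the only difference between the groups that the labels give. The RNA of 2 rats was pooled in each library, ribosomal RNA was removed, and 3 libraries per age were sequenced on the SOLiD platform. The same count file is deposited as pool 2 at 6 months and as pool 3 at 12 months, which leaves 8 independent libraries among 9 files. The age of this shared library cannot be told from the labels, and results are given with it, as labelled, and without it. Reads counted on genes numbered from 6513376 to 9196951 per library, and a single identifier, neither Tf nor Heph, took from 44.0 to 52.4% of them. Each library is called a pool below. Values are normalized counts, that is, counts per 1000000 gene reads (CPM) after TMM scaling, which corrects library sizes for a few very abundant genes. Pooled RNA hides the spread between single rats.

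Transferrin is the main carrier of ferric iron in plasma and brain fluid, and cells take it up with its iron through the transferrin receptor. Within the brain its mRNA is known mainly from oligodendrocytes and from the choroid plexus epithelium. Hephaestin is a membrane-bound multicopper ferroxidase related to ceruloplasmin. It oxidises ferrous iron as it leaves a cell through the exporter ferroportin, in the form that transferrin can then bind.

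The identity of the Tf row carries a limit. The study's table gives this identifier the symbol Tf but the full name of another protein, the beta subunit of the signal recognition particle receptor (Srprb), part of the receptor that brings ribosomes to the endoplasmic reticulum. In the RefSeq annotation of the GRCr8 rat assembly, Tf and Srprb lie on chromosome 8 with 0 annotated genes between them. Heph lies on chromosome X. The counts were made on an older build (RGSC 3.4, rn4), whose gene models were not used here, so whether reads of Srprb were counted under the Tf identifier was not tested. The RefSeq table lists no Ensembl identifiers and could not settle the name. The strand setting of the counting is not given in the sources used here.

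Tf expression, per the row of this name, was highest at 12 months and lowest at 28 months, with 6 months between. Neither step next to 6 months passed a test over all genes, as given below. The normalized count of Tf was 161 in 6-month pool 1 and 129 in pool 3. At 12 months it had 208 in pool 1 and 211 in pool 2. The library deposited under both ages had 198. At 28 months, Tf had 85.4, 128 and 111 normalized counts in pools 1, 2 and 3. All 28-month libraries were thus below every younger library, but the gap between the highest 28-month library (127.7) and the lowest 6-month library (128.5) was smaller than the counting error of either. Of all genes tested, 3.72% were lower in every 28-month library than in every library labelled 6 months. Against 12 months, the contrast that chose the genes, this share was 5.4%. The share below both ages at once was not computed. The shared library was closer to the other 12-month libraries than to the other 6-month libraries.

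As labelled, the mean Tf level was 163 ± 34.8 normalized counts (SD, n = 3) at 6 months, 206 ± 6.71 (SD, n = 3) at 12 months and 108 ± 21.3 (SD, n = 3) at 28 months. Without the shared library it was 145 ± 23.1 (SD, n = 2) at 6 months and 209 ± 1.74 (SD, n = 2) at 12 months. These levels rest on 687 to 1523 reads per library, for which counting alone gives a relative error of 2.56 to 3.82%. The libraries varied by 21.4% of their mean at 6 months, 3.26% at 12 months and 19.7% at 28 months, so that the spread at 6 and 28 months was several times the counting error. Intervals and errors from counts cover counting only. The reads carry no molecular identifiers, so copies of the same molecule could not be told apart and the counting error may be too small.

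Heph expression took the opposite order, with the lowest level at 12 months and the highest at 28 months, and again neither step next to 6 months passed a test. Heph had 11.6 normalized counts in 6-month pool 1 and 13.1 in pool 3. It had 8.75 and 6.92 in 12-month pools 1 and 2, and 6.60 in the shared library. At 28 months, Heph had 17.0, 16.6 and 14.2 in pools 1, 2 and 3, each above every younger library. Of all genes tested, 3.2% were higher in every 28-month library than in every library labelled 6 months, and 4.06% against 12 months. The share above both ages at once was not computed. As for Tf, the gap between 28-month pool 3 (14.2) and 6-month pool 3 (13.1) was smaller than the counting error of either (10.4% and 9.37%). For Heph too, the shared library lay beside the other 12-month libraries and below both other 6-month libraries.

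The mean Heph level was 10.5 ± 3.43 normalized counts (SD, n = 3) at 6 months, 7.42 ± 1.16 (SD, n = 3) at 12 months and 15.9 ± 1.51 (SD, n = 3) at 28 months. Without the shared library it was 12.4 ± 1.08 (SD, n = 2) at 6 months and 7.83 ± 1.30 (SD, n = 2) at 12 months. Heph is the less deeply covered of the pair, with 47 to 137 reads per library. Its counting error was 8.54 to 14.6% per library, and its libraries varied by 15.7% of their mean at 12 months and 9.50% at 28 months, close to that error. For the 6-month libraries the variation was 32.8% as labelled, above the counting error, and 8.69% without the shared library. The shared library held 47 Heph reads, with an exact 95% Poisson interval of 34.5 to 62.5, against 106 (86.8 to 128) in 6-month pool 1 and 50 (37.1 to 65.9) in 12-month pool 2. Since the libraries differ in size, these intervals show only how far counting limits each value.

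**Figure D1:**
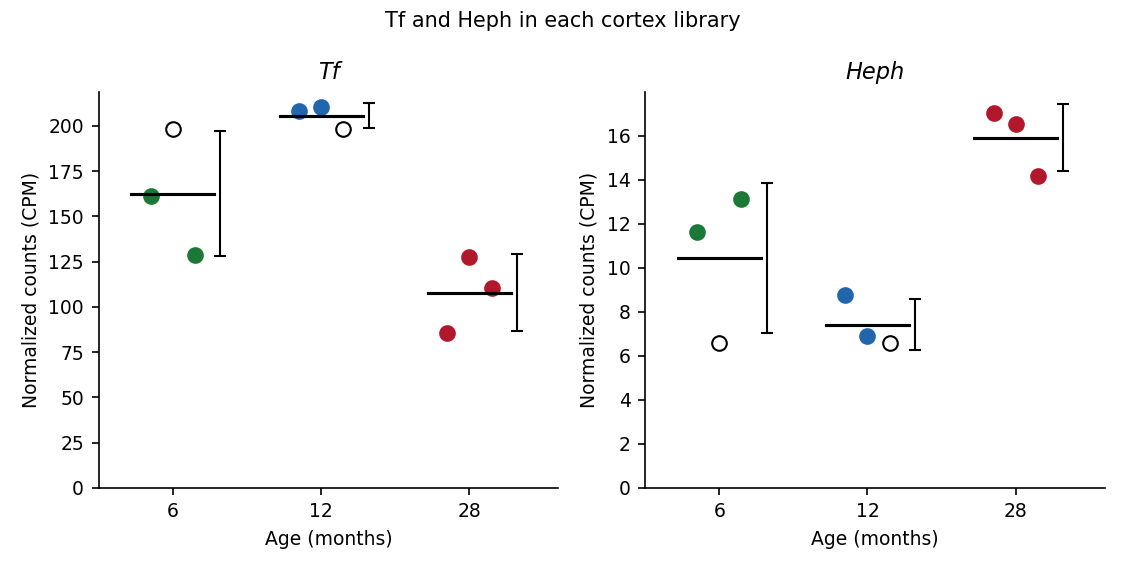
Normalized counts (CPM, linear axis from 0) of Tf (left) and Heph (right) in each library by age in months. Filled points are single libraries of 2 pooled rats, open points the file deposited under both 6 and 12 months, horizontal bars the group means as labelled and vertical bars the SD (n = 3). The 28-month libraries hold the lowest Tf and the highest Heph levels, and the open points sit with the 12-month libraries.

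Between 6 and 28 months, Tf was lower and Heph higher in 28-month-olds, but neither was DE. The log2FC of Tf was -0.59 (standard error 0.21), a level of 0.665 times that at 6 months, with an FDR of 0.9998 (edgeR's quasi-likelihood test, Benjamini-Hochberg adjustment over 16172 genes). Its 95% interval, which is not adjusted for the number of genes, ran from -1.04 to -0.13. The log2FC of Heph was 0.60 (standard error 0.25), or 1.52 times the level at 6 months, with an FDR of 0.9998 by the same test and an interval from 0.05 to 1.15. Of the pair, 0 of 2 had an FDR under 0.05, against 0.111% of all genes tested. Before adjustment, the quasi-likelihood p was 0.0161 for Tf and 0.0343 for Heph, and 391 of the 16172 genes had an unadjusted p under 0.05. The exact test (0.241% of all genes) and DESeq2 (0.229%) called neither Tf nor Heph. The exact two-sided permutation test of the log2 normalized counts gave p = 0.1 for Tf and p = 0.1 for Heph, the smallest p that 3 libraries against 3 allow.

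Without the shared library, the comparison of 6 and 28 months rests on 6-month pools 1 and 3, the only libraries that the choice of these genes did not use. The log2FC was then -0.43 for Tf (standard error 0.20, quasi-likelihood FDR 0.775, interval -0.86 to 0.01) and 0.36 for Heph (standard error 0.19, FDR 0.824, interval -0.06 to 0.79). The direction of both was kept, with 0 of 2 DE against 0.206% of the genes tested, and 0 of 2 with an unadjusted p under 0.05 against 1035 of 16042 genes. For Heph the log2FC with the shared library was more than 1.5 times the value without it. The libraries of the remaining samples did not overlap for either gene. That holds for many genes at this size, as 11% of all genes tested were lower and 10.9% higher in all 3 of the 28-month libraries than in both 6-month libraries. With the shared library kept at 6 months, these shares were 3.72% and 3.2%. The exact permutation test gave p = 0.2 for both Tf and Heph, the smallest that 2 libraries against 3 allow.

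The separation of 6 and 28 months was not kept on every scale. By library totals alone, without TMM, Tf had 128 CPM in 6-month pool 3 and 141 in 28-month pool 2, so that the groups overlapped. Heph did not overlap on this scale, but 6-month pool 3 had 13.1 and 28-month pool 3 had 13.2 CPM, a gap far below the counting error. Hprt1 (ENSRNOG00000031367), which encodes a purine salvage enzyme and was used as a reference gene in the study's qPCR, served as a further scale. Hprt1 had 46.3 normalized counts in 6-month pool 1 and from 66.6 to 79.9 in the other libraries. Per Hprt1 read, the highest 28-month library had 1.92 Tf reads and the lowest 6-month library 1.88. For Heph, 6-month pool 1 had 0.251 reads per Hprt1 read, above the range of 0.178 to 0.249 at 28 months. The groups thus overlapped for both genes on this scale. With the shared library kept at 6 months, the mean log2 ratio to 28 months fell by 0.81 for Tf and rose by 0.44 for Heph. The shared library had 0.0913 Heph reads per Hprt1 read. Without it, the Heph ratio was 0.251 and 0.192 in 6-month pools 1 and 3. At 28 months it was 0.249, 0.248 and 0.178, so that no rise of Heph is read on this scale. The Tf ratio was 3.48 and 1.88 in these 6-month pools, against 1.25, 1.92 and 1.38 at 28 months.

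**Figure D2:**
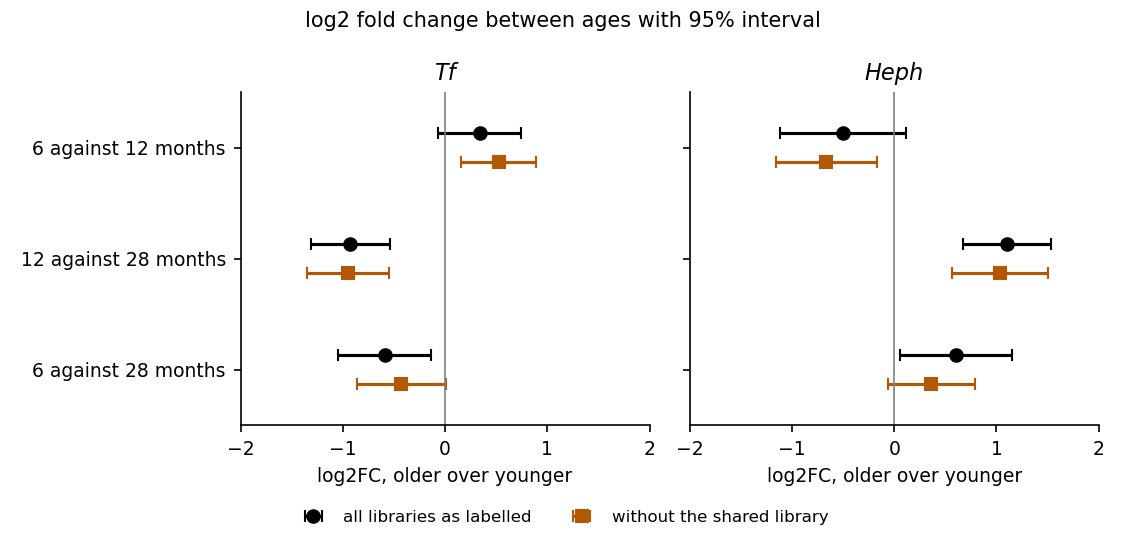
log2FC of Tf (left) and Heph (right) between ages by edgeR's quasi-likelihood fit, older over younger on the horizontal axis, with 95% intervals not adjusted for the number of genes. Circles use all libraries as labelled and squares leave out the library deposited under both 6 and 12 months. Between 6 and 12 months the points lie on opposite sides of 0 for the 2 genes, and each gene changes side between 12 and 28 months, the contrast from which the genes were chosen.

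Between 6 and 12 months, Tf was higher and Heph lower in 12-month-olds, and neither was DE. With the shared library in both groups, the log2FC was 0.34 for Tf (standard error 0.18, quasi-likelihood FDR 0.997, interval -0.07 to 0.75) and -0.50 for Heph (standard error 0.27, FDR 0.997, interval -1.12 to 0.12). As labelled, 0% of 16113 genes were called by this test, with 485 at an unadjusted p under 0.05, while the exact test called 82 (0.509%) and DESeq2 21 (0.235%), neither Tf nor Heph among them. Without the shared library, the log2FC was 0.52 for Tf (standard error 0.16, quasi-likelihood FDR 0.218, interval 0.15 to 0.89) and -0.67 for Heph (standard error 0.22, FDR 0.241, interval -1.16 to -0.17). In that fit 1.2% of all genes tested were DE, and 0 of these 2. Both had an unadjusted p under 0.05, as did 2169 of the 15966 genes tested. Tf was then 1.44 times as high at 12 as at 6 months and Heph 0.630 times as high. In normalized counts the remaining libraries did not overlap. With 2 libraries on each side, 23.1% of all genes tested were higher and 22.4% lower in this way, so the lack of overlap says little about Tf and Heph. Per Hprt1 read, with the shared library in both groups, the log2 difference between 6 and 12 months was 0.12 for Tf and -0.68 for Heph. The fit of the same libraries gave 0.34 and -0.50. Without the shared library, Tf overlapped on this scale, with 3.48 and 1.88 reads per Hprt1 read in 6-month pools 1 and 3. The 12-month pools 1 and 2 had 2.88 and 2.93. Heph had 0.251 and 0.192 in these 6-month pools and 0.121 and 0.0963 in these 12-month pools.

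Between 12 and 28 months, the contrast from which both genes were listed, the difference was larger than in either comparison with 6 months. Tf at 28 months was 0.527 times its level at 12 months (log2FC -0.93, standard error 0.18) and Heph was 2.15 times its level (log2FC 1.11, standard error 0.20). Without the shared library the values were 0.519 times (log2FC -0.95) and 2.05 times (log2FC 1.03). For Tf the highest 28-month library had 128 normalized counts and the lowest 12-month library 198. For Heph the lowest 28-month library had 14.2 and the highest 12-month library 8.75. Of all genes tested, 5.4% were lower and 4.06% higher in every 28-month library than in every 12-month library. The quasi-likelihood test gave 0 of 2 an FDR under 0.05 in this contrast, where it called 0.0563% of all genes. With a filter of 1 read in any library, in place of 5, the same test called 2 of 2, among 42 of 21078 genes. The exact test (0.313% of all genes) and DESeq2's Wald test (0.336%) called 2 of 2. The choice of the genes by an exact test on these counts fixed the first result in advance and favoured the second. Nothing is read from these counts.

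Within each library, the reads of Heph can be set against those of Tf without any scaling between libraries. Since the genes differ in length, the share compares libraries and not the amounts of the transcripts. Heph reads came to 7.21% of the Tf reads in 6-month pool 1 and 10.2% in pool 3. They came to 4.20% and 3.28% in 12-month pools 1 and 2, and to 3.33% in the shared library. The share was 19.9%, 12.96% and 12.8% in 28-month pools 1, 2 and 3, a mean of 15.2% ± 4.06 (SD, n = 3). The share was thus highest in the 28-month libraries, intermediate in 6-month pools 1 and 3, and lowest in the 12-month and shared libraries. As labelled, the range at 6 months (3.33 to 10.2%) overlapped that at 12 months (3.28 to 4.20%). How often other pairs of genes separate the libraries in this way was not computed. The direction of the share between 12 and 28 months follows from the choice of the genes.

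**Figure D3:**
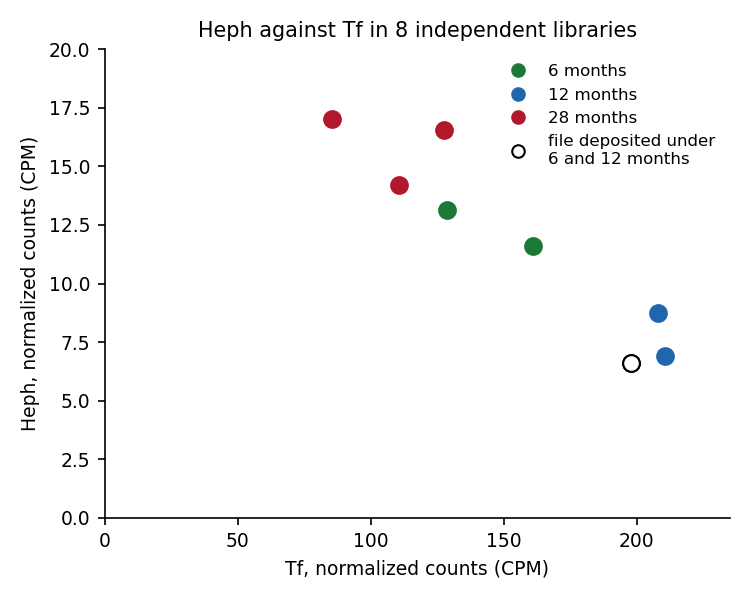
Heph against Tf in normalized counts (CPM, both axes linear from 0) for the 8 independent libraries, coloured by age, with the file deposited under both 6 and 12 months as an open point. The ages run in opposite order on the axes, from the 28-month libraries at the upper left over the 6-month libraries to the 12-month libraries and the open point at the lower right.

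Across the 8 independent libraries, log2 normalized counts of Tf and Heph had a Pearson r of -0.91. This is a description over libraries that differ in age and depth and were scaled together, and both genes were picked for opposite changes in 6 of them. Of the 128 other identifiers with a name and a mean of at least 5 normalized counts, the highest r with Tf was that of Gfap (0.92), the intermediate filament of astrocytes. RGD1306682 (0.90) and the interferon-induced gene Ifi27 (0.84) followed. The lowest were Heph, the box C/D small nucleolar RNA SNORD37 (-0.88) and SNORD42 (-0.82), another of this class, which guides RNA methylation. Most of these names come from the study's lists of genes that changed with age in these libraries, so that they are no independent choice.

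At 6 months, Gfap had 72.9 (pool 1) and 89.7 (pool 3) normalized counts. It had 156 and 146 in 12-month pools 1 and 2 and 152 in the library shared by both ages. It had 52.7, 77.5 and 53.3 in 28-month pools 1, 2 and 3. The highest r with Heph was that of SNORD37 (0.98), which had 240 and 312 normalized counts in 6-month pools 1 and 3 and from 298 to 378 at 28 months. The 12-month and shared libraries had from 140 to 170. Egr3, an activity-regulated transcription factor, had an r of 0.84 with Heph and SNORD42 also 0.84, and the lowest after Tf were RGD1306682 (-0.90) and Gfap (-0.89). Over all 8881 other identifiers of this level, 7 had an r above 0.9 with Tf and 3 with Heph, and 3 had an r below -0.9 with Tf and 13 with Heph.

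**Figure D4:**
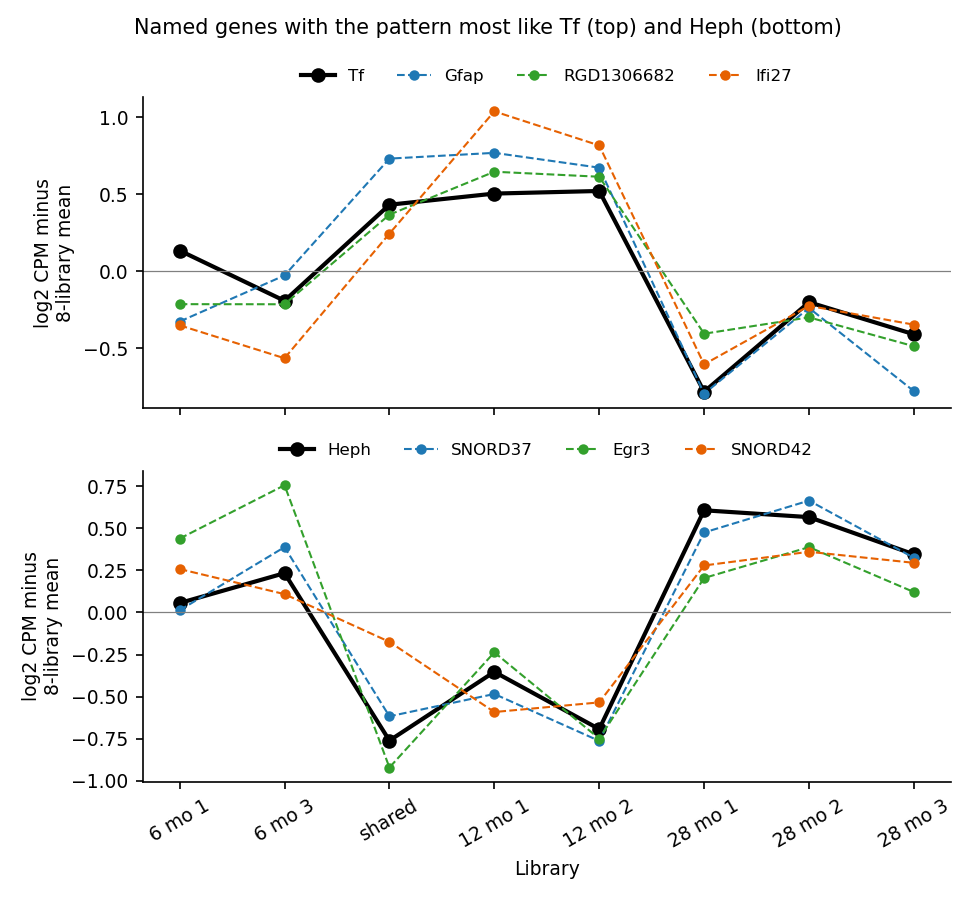
Profiles over the 8 independent libraries of Tf with its 3 most similar named genes (top) and of Heph with its 3 (bottom), as log2 CPM minus the gene's mean over the libraries. Lines only join the points of a gene, and libraries of 1 age have no order. The genes in the top panel are high in the 12-month and shared libraries and those in the bottom panel low.

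Few other genes of iron handling could be read, because the count files carry identifiers only. Of 13 iron carriers and receptors listed, 2 were matched to an identifier, Tf and Lrp2 (megalin, a large endocytic receptor). Heph was the 1 match among 5 genes of iron export, and the globin LOC689064 (haemoglobin subunit beta-2) the 1 match among 9 genes of haem turnover. None of 10 genes of iron uptake, 7 of iron storage and 7 regulators was matched, so the transferrin receptor, ferritins, ferroportin and ceruloplasmin were not analysed here. By the quasi-likelihood test, 0 of the 4 matched genes were higher and 0 lower at an FDR under 0.05 between 6 and 28 months or between 6 and 12 months, with or without the shared library. These genes have names here because the study listed them in tables made from these libraries, so that they are no independent choice. Between 6 and 28 months, 3 of the 4 (all but Lrp2) had an unadjusted p under 0.05, against 391 of all 16172 genes, and 0 of the 4 without the shared library, against 1035 of 16042. Between 6 and 12 months this held for 0 of the 4, against 485 of 16113, and for 3 of the 4 without the shared library, against 2169 of 15966. Lrp2 had 32 reads in the shared library, from 2 to 15 in the other 6-month and 12-month libraries and from 1 to 7 at 28 months, so that the ages overlapped. The normalized count of LOC689064 was 31.6 in 6-month pool 1 and 23.1 in pool 3, ranged from 17.3 to 29.2 at 28 months, and was 65.1 in the shared library. It was 50.8 in 12-month pool 1 and 33.6 in pool 2. From 6 to 28 months LOC689064 had a log2FC of -0.82 (standard error 0.34) and a quasi-likelihood FDR of 0.9998, and a log2FC of -0.28 once the shared library was left out.

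Markers of the cell types that could carry Tf were mostly out of reach. None of 15 oligodendrocyte, 7 choroid plexus, 7 neuron and 5 endothelial markers was matched to an identifier. The labelled tissue was therefore not checked against neuronal markers, and in bulk RNA fewer cells of a type and less RNA per cell cannot be told apart. Gfap was the 1 astrocyte marker matched of 7. The 2 microglia markers matched of 7, Aif1 and Cd74, summed to 10.3 to 10.9 normalized counts in 6-month pools 1 and 3, 37.6 to 45.0 in 12-month pools 1 and 2, 28.3 in the shared library and 9.77 to 15.4 at 28 months. The 4 plasma and blood markers matched of 6 (Alb, Apob, Gc and LOC689064) summed to 23.6 to 32.1 in 6-month pools 1 and 3 and 48.4 to 56.5 in 12-month pools 1 and 2. They summed to 78.2 in the shared library and 20.6 to 30.1 at 28 months, and of them Gc was at 0 in both of these 6-month samples and Gc and Apob in 28-month pool 3. Like Tf, these sums and Gfap were higher in the 12-month and shared libraries than in the other libraries. Of the plasma and blood markers this held for all but Gc. Gc had 0.287 normalized counts in 12-month pool 1, against 0.373 and 0.556 in 28-month pools 1 and 2. LOC689064 made up most of the plasma and blood sum in every library. Alb and Apob had 3 and 2 reads in each of 6-month pools 1 and 3. Of the microglia pair the order of the sums held for Cd74 but not for Aif1. Aif1 had 4.91 in the shared library, below 5.70 and 5.19 in 6-month pools 1 and 3, where Cd74 had 23.4 against 5.15 and 5.07. From 6 to 28 months without the shared library, the log2FC was -0.90 for Aif1 and -0.41 for Gfap, but 0.82 for Cd74, 1.86 for Alb and 1.42 for Apob. None of these was DE. From 6 to 12 months without that library, the quasi-likelihood test called Cd74 (log2FC 2.65, FDR 0.000602), Alb (3.88, FDR 0.0142), Gfap (0.88, FDR 0.0328) and Apob (4.05, FDR 0.0324). It did not call Aif1, Gc or LOC689064. In that fit 1.2% of all genes tested were DE. With the shared library in both groups, none of these markers was. The part of all these markers in the levels of Tf and Heph was not tested.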

How the data were processed

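RNA of the cerebral cortex was sequenced from 9 libraries, 3 per age. The authors mapped the SOLiD reads with Bowtie to the Ensembl release 65 rat genome (RGSC 3.4, rn4) and obtained gene-level counts with HTSeq. As deposited, the counts are raw, for 29516 identifiers and 5 further lines of reads assigned to no gene, which were left out. Versions are not given in the sources used here.

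Names for 151 identifiers came from the study's supplementary tables. Genes reaching 5 reads in any library compared were tested with the quasi-likelihood test of edgeR 4.0.16 (R 4.3.3) after TMM normalization, separately for the 3 pairs of ages, with a threshold of 0.05 on the FDR (Benjamini-Hochberg). CPM used TMM over the 9 libraries. The genes named are Tf and Heph, listed iron genes and markers with an identifier, Hprt1, and the 3 named genes with the highest and the 3 with the lowest Pearson r with each member (log2 CPM, prior count of 2). Members, lists and tests were chosen with earlier results of these data known. As alternatives, calls were made with edgeR's exact test (tagwise dispersion, prior degrees of freedom 28, proportion 0.5, grid length 500), with DESeq2 1.42.0, under other scalings and filters, with a dispersion from all 9 libraries, without single libraries or the shared library, and on ratios to Hprt1 reads. The fits were tested on simulated data. Permutation tests used scipy 1.17.1. With libraries of pooled rats, p-values measure the spread between pools.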

Additional observations from a re-analysis of the deposited data

How the results depend on the processing

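Tf and Heph kept their direction in each of the 3 comparisons under all 16 alternatives, and neither passed an FDR of 0.05 between 6 and 28 or 6 and 12 months under any of the 15 of them that give a test. The alternatives are not all distinct. The fit without the shared library is that without 6-month pool 2 between 6 and 28 months, and that without 12-month pool 3 between 12 and 28 months. The ratios to Hprt1 reads kept the shared library, and the direction between 12 and 28 months follows from the choice of the genes. Over the alternatives, the log2FC of Tf ranged from -0.81 to -0.43 between 6 and 28 months, from 0.12 to 0.52 between 6 and 12 months and from -1.07 to -0.78 between 12 and 28 months. That of Heph ranged from 0.36 to 0.80, from -0.75 to -0.31 and from 1.03 to 1.24. With each library left out in turn, Tf ranged from -0.73 to -0.43 between 6 and 28 months and from 0.19 to 0.49 between 6 and 12 months, the lowest without 6-month pool 3, and Heph had the same ranges as over all alternatives. The lowest FDR was 0.775 and 0.218 for Tf and 0.824 and 0.241 for Heph between 6 and 28 and between 6 and 12 months, each without the shared library or a copy of it. The numbers of DE genes over all genes moved more: 0, 18 and 9 by the quasi-likelihood test between 6 and 12, 6 and 28 and 12 and 28 months were 82, 39 and 50 by the exact test, 21, 27 and 36 by DESeq2, and 191, 33 and 19 without the shared library. A shared dispersion gave 0, 1 and 1, and leaving out single libraries 0 to 109, 0 to 33 and 0 to 19, with 0 between 6 and 28 months without 28-month pool 3, and 0 between 12 and 28 months without 12-month pool 2, 28-month pool 1 or 28-month pool 3. Between 12 and 28 months, library totals alone gave 3, a filter of 1 read in any library 42 and one of 10 reads in every library 5. No paired analysis was possible because the labels number the samples in 1 run over all ages and tie none to a shared litter, batch or day, and the pool numbers used here only follow the order of deposit. Depth limits Heph more than Tf.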
